A study of Mus musculus with 24 samples.

Results

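The granulocyte and monocyte effector genes followed here are 10 genes whose products arm neutrophils and monocytes: Elane, Mpo, Prtn3, Ctsg, Ms4a3, Retnlg, Ccl6, S100a8, S100a9 and Lyz2. They were taken by name from the 38215 genes of the expression table. All 10 passed the filter on low counts, which 15879 genes passed. They were measured in purified blood stem cells.

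The cells were long-term haematopoietic stem cells (LT-HSCs) of 12 chimeric mice, and the RNA was polyadenylated RNA sequenced from 24 libraries. Recipients were lethally irradiated C57BL/6J mice that had received equal parts of marrow from a mutant and a congenic wild-type donor. Mutant cells (CD45.2) were Jak2fl-V617F/+ with Tg(E2A-cre), a cre that acts early and in all tissues, so the mutation is not limited to blood cells in the donor. Wild-type cells (CD45.1) were C57Bl/6N Ptprca, and the labels do not say how many donors were used. Jak2V617F is the activating Jak2 mutation of myeloproliferative neoplasms. Of the mice, 6 received vehicle (albumin in phosphate-buffered saline) and 6 received pegIFN, a pegylated interferon alpha, at 600 ng weekly in 5 doses over 4 weeks, with cells taken 48 hours after the last dose. Each mouse gave a wild-type and a Jak2V617F library, which makes 4 groups of 6: wild-type vehicle, wild-type pegIFN, Jak2V617F vehicle and Jak2V617F pegIFN. The ages of the mice are not given in the sources used here. LT-HSCs were sorted as lineage-negative Sca1+ cKit+ CD150+ CD48- cells after depletion of cells with TER-119, Gr-1, CD11b, B220, CD3 or CD5.

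The neutrophil makes its weapons in waves. Promyelocytes fill the primary (azurophil) granules with myeloperoxidase and serine proteases, later precursors fill the specific and gelatinase granules, and the S100 proteins accumulate in the cytosol. Granule genes are switched on in granulocyte-monocyte progenitors and later precursors by factors such as C/EBP alpha, C/EBP epsilon and PU.1. Transcripts of granule genes found in stem cells are often described as myeloid priming.

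The members fall into 4 roles. Elane (neutrophil elastase), Prtn3 (proteinase 3) and Ctsg (cathepsin G) are the serine proteases of the primary granule, and Mpo is its peroxidase, which makes hypochlorous acid. Ms4a3 is a membrane protein of granulocyte-monocyte progenitors. Retnlg, a resistin-like secreted protein of neutrophils, and Ccl6, a CC chemokine of myeloid cells, are signals. S100a8 and S100a9 are the subunits of calprotectin, and Lyz2 is the lysozyme of neutrophils, monocytes and macrophages.

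Promoter sequences are printed for Elane, Mpo, Prtn3 and Ctsg, the primary granule genes, whose levels moved together from library to library, and for S100a8 as a member of the cytosolic pair. Each is the RefSeq window from 250 bases before to 50 bases after the transcription start on GRCm38.p6, read 5′ to 3′ on the strand of the gene. The windows are chr10:79886062-79886361 on the plus strand for Elane, chr11:87793534-87793833 on the plus strand for Mpo and chr10:79879417-79879716 on the plus strand for Prtn3. Those of Ctsg and S100a8 are chr14:56102525-56102824 on the minus strand and chr3:90668821-90669120 on the plus strand. Capitals mark GAGGAA, the core of the PU.1 site, or its reverse complement, and in Ctsg also a match to TTCNNNGAA, the GAS letters bound by STAT factors.
Elane: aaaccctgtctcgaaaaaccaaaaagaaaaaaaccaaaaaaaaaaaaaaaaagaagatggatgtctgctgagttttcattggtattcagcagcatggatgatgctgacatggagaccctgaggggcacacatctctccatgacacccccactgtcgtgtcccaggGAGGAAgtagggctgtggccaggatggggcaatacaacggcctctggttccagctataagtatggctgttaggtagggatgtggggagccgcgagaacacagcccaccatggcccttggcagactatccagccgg
Mpo: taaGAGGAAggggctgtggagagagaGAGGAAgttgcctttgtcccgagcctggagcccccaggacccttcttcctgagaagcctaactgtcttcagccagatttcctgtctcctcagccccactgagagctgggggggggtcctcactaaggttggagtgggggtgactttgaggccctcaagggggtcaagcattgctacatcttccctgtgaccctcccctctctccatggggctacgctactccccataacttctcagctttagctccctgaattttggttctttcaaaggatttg
Prtn3: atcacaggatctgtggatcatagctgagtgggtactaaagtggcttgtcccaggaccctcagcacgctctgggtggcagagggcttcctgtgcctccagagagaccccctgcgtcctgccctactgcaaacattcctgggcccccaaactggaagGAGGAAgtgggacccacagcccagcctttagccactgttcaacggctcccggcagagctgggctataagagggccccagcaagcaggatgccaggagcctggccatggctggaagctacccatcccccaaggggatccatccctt
Ctsg: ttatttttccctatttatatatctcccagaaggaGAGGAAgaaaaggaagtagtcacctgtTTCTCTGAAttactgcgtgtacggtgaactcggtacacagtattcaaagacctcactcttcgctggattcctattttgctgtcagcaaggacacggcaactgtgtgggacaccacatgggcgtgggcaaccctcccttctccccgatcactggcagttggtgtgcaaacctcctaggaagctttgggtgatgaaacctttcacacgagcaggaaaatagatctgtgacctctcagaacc
S100a8: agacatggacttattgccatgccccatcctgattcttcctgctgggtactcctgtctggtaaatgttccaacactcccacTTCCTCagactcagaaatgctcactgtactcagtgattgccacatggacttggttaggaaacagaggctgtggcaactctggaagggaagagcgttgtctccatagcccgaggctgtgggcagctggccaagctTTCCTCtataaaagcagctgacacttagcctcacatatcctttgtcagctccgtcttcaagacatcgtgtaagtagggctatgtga

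GAGGAA was found on either strand in 6 of the 10 windows, and in 28.3% of the 32851 RefSeq promoter windows of the same length. The 6 were those of Elane (from position -85, counted from the start site), Prtn3 (-95), Mpo (-247 and -224), Ctsg (-216), Ms4a3 (36) and S100a8 (-170 and -36). The C/EBP letters TTGCNNAA were found in Ms4a3, Retnlg and S100a9, 3 of 10, against 10.8% of all windows. TTCNNNGAA was found in Ctsg, 1 of 10, against 8.3%. The interferon-stimulated response element was found in 0 of 10 windows and in 3.44% of all. Both strands were searched, and no match overlapped one of another motif. These are matches of letters within 300 bases and say nothing of binding.

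All positions of genes are on GRCm38, as the expression table gives them. Elane (ENSMUSG00000020125, chr10:79886312-79888216) lies 3.14 kb from Prtn3 (ENSMUSG00000057729, chr10:79874476-79883174), both on the plus strand. Mpo (ENSMUSG00000009350, plus strand) spans chr11:87793581-87804413, and Ctsg (ENSMUSG00000040314, minus strand) chr14:56099881-56102574. Ms4a3 (ENSMUSG00000024681, minus strand) spans chr19:11629497-11640834 and Retnlg (ENSMUSG00000022651, plus strand) chr16:48872608-48874498. Ccl6 (ENSMUSG00000018927, minus strand) spans chr11:83587882-83593087. S100a8 (ENSMUSG00000056054, plus strand, chr3:90669071-90670034) and S100a9 (ENSMUSG00000056071, minus strand, chr3:90692632-90695721) are 22.6 kb apart. Lyz2 (ENSMUSG00000069516, minus strand, chr10:117277334-117282274) is 5.52 kb from its near copy Lyz1. Lyz1 had at most 5.7 counts per library where Lyz2 had 1997 to 9059, and RSEM divides reads that fit both. Prtn3 overlaps BC005764 on the other strand (1289 to 8057 counts), Mpo overlaps the antisense gene Gm11505 (44.4 to 842 counts) and Ccl6 overlaps E230016K23Rik (0 to 16 counts). Whether reads were counted by strand is not given in the sources used here, so the levels of Prtn3, Mpo and Ccl6 are uncertain to that extent.

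Libraries held 24.6 to 39.7 M counts in all, and no pair of libraries was identical. Wild-type vehicle replicate 4 and Jak2V617F pegIFN replicate 1 differed from their groups in sex-linked genes, and are called the discordant libraries below. Xist was at 600 CPM (read counts relative to the TMM-scaled library total) in the first, against 1940 to 3310 in the other 5 wild-type vehicle libraries. It was at 654 CPM in the second, against 40.8 to 110 in the other 5 Jak2V617F pegIFN libraries. Each count of members from the fit without a block was repeated without these 2 libraries, and blocked counts between genotypes without each mouse in turn. The stem cell genes Procr, Hlf, Mecom and Fgd5 were detected in every library, which does not measure the purity of the sort. They were chosen after their values were seen and do not stand for all stem cell genes, not all of which fell with pegIFN. Hlf had group medians of 360, 86.6, 253 and 92.4 CPM and Fgd5 of 36.8, 6.05, 26.5 and 3.58 CPM in wild-type vehicle, wild-type pegIFN, Jak2V617F vehicle and Jak2V617F pegIFN cells. Xist was higher in wild-type than in Jak2V617F libraries in both treatments. It was at 1800 to 2630 CPM in wild-type pegIFN and at 3 to 54.9 CPM in Jak2V617F vehicle libraries. The donors also differ in CD45 allele, the cre transgene and sex-linked genes, and these cannot be told apart from the Jak2 genotype. In RNA of sorted bulk samples, more cells with a transcript and more of it per cell cannot be told apart either.

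The summed level of the 10 genes ran from 377 to 1030 CPM in wild-type vehicle libraries (median 508) and from 194 to 595 under pegIFN (median 393). In Jak2V617F libraries it ran from 384 to 2130 under vehicle (median 980) and from 863 to 1440 under pegIFN (median 1040). Per kilobase of exon (union of GENCODE vM21 exons), Lyz2 was the most abundant member of wild-type cells, with a median of 135 CPM per kb under vehicle and 71.8 under pegIFN. Ccl6 was the least, at 1.19 and 0.639 CPM per kb. In Jak2V617F cells S100a9 led, at medians of 200 CPM per kb under vehicle and 147 under pegIFN. In wild-type vehicle cells the order was Lyz2, S100a9, Prtn3, S100a8, Mpo, Elane, Ctsg, Retnlg, Ms4a3 and Ccl6, and each neighbour in it overlapped the next over its 6 libraries. In Jak2V617F pegIFN cells the order was S100a9, Elane, Mpo, Lyz2, S100a8, Prtn3, Ctsg, Retnlg, Ms4a3 and Ccl6, and the neighbours that did not overlap were Ms4a3 (7.8 to 15.6 CPM per kb) and Ccl6 (2.17 to 6.9).

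**Figure D1:**
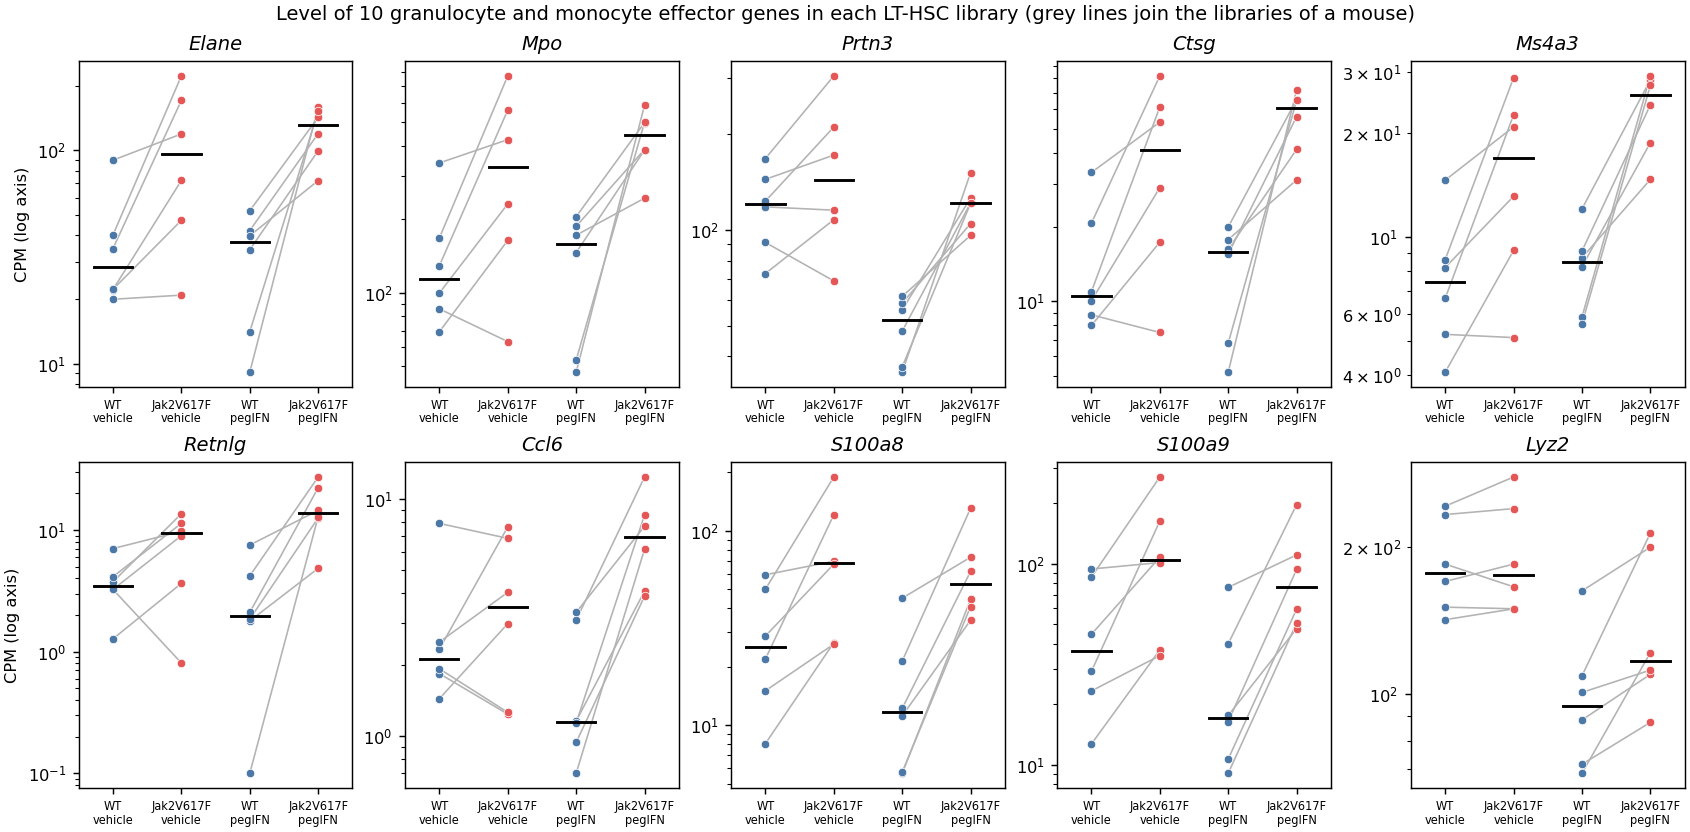
Level of each gene in every library, in CPM on a log axis. Points are libraries, blue for wild-type and red for Jak2V617F, black bars are group medians (n = 6), and grey lines join the libraries of a mouse. Under pegIFN every grey line ascends from wild-type to Jak2V617F, and for Elane, Mpo, Prtn3, Ctsg, Ms4a3 and Ccl6 the groups do not overlap. The share of all genes whose groups do not overlap was not counted.

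In mice given pegIFN, 7 of the 10 genes were higher in Jak2V617F than in wild-type LT-HSCs at a Benjamini-Hochberg adjusted p under 0.05 (edgeR quasi-likelihood test over all genes). The 7 were Elane, Mpo, Prtn3, Ctsg, Ms4a3, Retnlg and Ccl6, and none was lower. Over all genes tested, 4.16% were higher and 4.43% lower. All 10 fold changes were positive, with a median log2 fold change of 1.81 against 0.01 over all genes. With the mouse as a block, which compares the libraries of a mouse with each other, 10 of 10 members were higher, where 13.3% of all genes were higher.

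Among the proteases of the primary granule, Elane ran from 9.12 to 52.1 CPM in wild-type pegIFN libraries (median 37) and from 72.1 to 159 in Jak2V617F pegIFN libraries (median 131). The lowest 2 wild-type libraries were replicates 5 and 6, and no wild-type library reached the lowest Jak2V617F library. The difference was 3.89-fold (log2 fold change 1.96 ± 0.52, SE, edgeR adjusted p = 0.025). Prtn3 ran from 35.7 to 61.8 CPM (median 52) in wild-type and from 96 to 151 (median 121) in Jak2V617F cells, a narrow spread with a clear gap. It was 2.42-fold higher (log2 1.27 ± 0.27, adjusted p = 0.0078). Ctsg ran from 5.16 to 20 CPM (median 15.9) and from 31 to 72 (median 60.6), again without overlap. Its difference was 4.05-fold (log2 2.02 ± 0.49, adjusted p = 0.017).

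Mpo ran from 47.3 to 205 CPM in wild-type pegIFN libraries (median 159) and from 244 to 586 in Jak2V617F pegIFN libraries (median 441). The groups did not overlap, and the low wild-type libraries were again replicates 5 and 6. The difference was 3.2-fold (log2 1.68 ± 0.52, adjusted p = 0.048), close to the threshold. Ms4a3 ran from 5.61 to 12.1 CPM (median 8.46) and from 14.7 to 29.3 (median 25.8), without overlap. It was 2.88-fold higher (log2 1.52 ± 0.34, adjusted p = 0.0097).

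Of the secreted signals, Ccl6 ran from 0.698 to 3.33 CPM in wild-type pegIFN libraries (median 1.15) and from 3.9 to 12.4 in Jak2V617F pegIFN libraries (median 6.92). The groups did not overlap, and wild-type replicates 1 and 3 were the high ones of their group. The difference was 4.08-fold (log2 2.03 ± 0.51, adjusted p = 0.019). Retnlg ran from 0.0997 to 7.52 CPM (median 1.97) and from 4.84 to 27.3 (median 13.7). Wild-type replicate 3 lay above Jak2V617F replicate 2, so the groups overlapped. Retnlg had the largest fitted difference of the 10, 5.3-fold (log2 2.41 ± 0.63, adjusted p = 0.023). The lowest wild-type library, replicate 6, held 3 counts where its partner held 420, a ratio of 129 in CPM with an exact 95% counting interval of 43.8 to 628.

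The calprotectin subunits and lysozyme did not pass in edgeR without the block and passed with it. DESeq2, which had no block, called 9 of 10 members and 1921 genes in all, where edgeR without the block called 1364 genes. The DESeq2 calls included S100a8 (adjusted p = 0.013) and S100a9 (adjusted p = 0.037) and not Lyz2 (adjusted p = 0.23). S100a8 ran from 5.65 to 45 CPM in wild-type pegIFN libraries (median 11.7) and from 34.7 to 131 in Jak2V617F pegIFN libraries (median 53.1). The overlap came from wild-type replicate 3, whose partner was at 73.1. The difference was 3.78-fold (log2 1.92 ± 0.60, adjusted p = 0.051), and with the block log2 2.13 ± 0.36 (adjusted p = 0.0022). S100a9 ran from 9.07 to 76.2 CPM (median 17) and from 47.5 to 197 (median 76.6), with the same library in the overlap. Its log2 fold change was 1.71 ± 0.62 (adjusted p = 0.094), and 1.92 ± 0.35 with the block (adjusted p = 0.0033). Lyz2 ran from 68.7 to 163 CPM (median 94.5) and from 87.4 to 214 (median 117), with broad overlap. It had the smallest difference of the 10, log2 0.49 ± 0.24 (adjusted p = 0.21), and 0.47 ± 0.09 with the block (adjusted p = 0.0024).

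**Figure D2:**
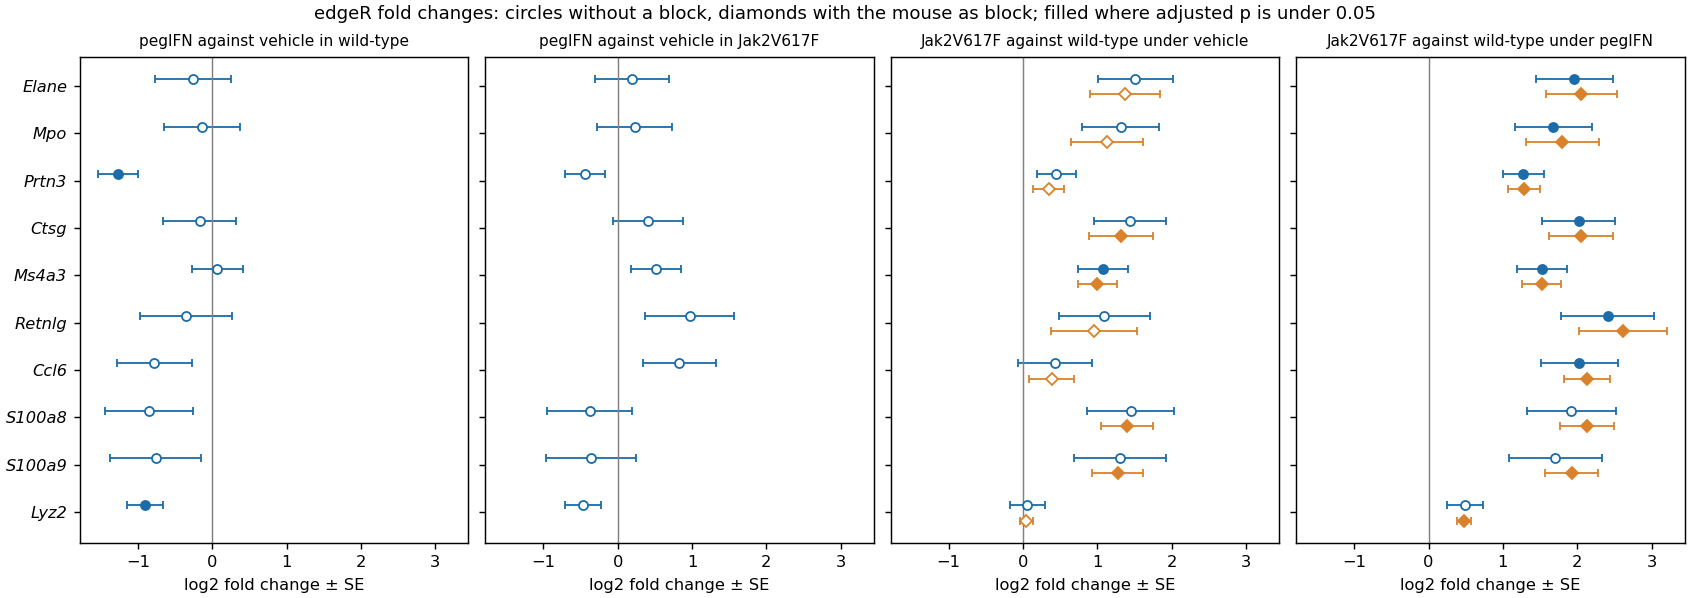
Log2 fold changes of the 10 genes in 4 comparisons with their standard errors. Blue circles are the edgeR fit without a block, orange diamonds the fit blocked by mouse, and filled symbols have an adjusted p under 0.05. In the panel of genotype under pegIFN all points lie right of 0 and 10 of 10 diamonds are filled. In the panel of wild-type cells Ms4a3 is the 1 gene right of 0, and the filled circles are Prtn3 and Lyz2, left of 0.

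Within each of the 6 pegIFN mice, the Jak2V617F library held the higher level of all 10 genes. The median difference over the 10 genes was between 0.72 log2 units in replicate 3 and 2.92 in replicate 6. For Elane the difference ranged from 0.86 to 4.12 log2 units, for Mpo from 0.50 to 3.63 and for Ctsg from 0.80 to 3.79. For Prtn3 it ranged from 0.64 to 2.08, for Ms4a3 from 0.75 to 2.31 and for Lyz2 from 0.15 to 0.97. The 2 mice with the widest gaps in the granule genes, replicates 5 and 6, were those with the lowest wild-type levels. Their Jak2V617F libraries held the highest 2 levels of Elane and Mpo in the group.

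The calls of single genes without the block depended on single libraries. The count of 7 fell to 4 without wild-type pegIFN replicate 2 or 5, to 3 without wild-type pegIFN replicate 4 and to 3 without Jak2V617F pegIFN replicate 1. It was also 3 without both discordant libraries (Prtn3, Ctsg and Ms4a3). The discordant Jak2V617F pegIFN replicate 1 held the highest level of its group for Retnlg, Ccl6, S100a8, S100a9 and Lyz2. Elane lost its call without 4 of the 12 libraries in turn, Mpo without 11, Retnlg without 5 and Ccl6 without 3. Prtn3, Ctsg and Ms4a3 kept theirs in all 12. With the block, 9 or 10 of 10 members were called when each mouse was left out in turn, and the call lost was that of Mpo, without replicates 1, 4, 5 or 6.

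In mice given vehicle, Ms4a3 was the member higher in Jak2V617F LT-HSCs, 1 of 10, where 8.48% of all genes were higher and 4.23% lower. All 10 fold changes were positive, with a median log2 fold change of 1.2 against -0.01 over all genes. With the mouse as a block 4 of 10 were higher, Ctsg, Ms4a3, S100a8 and S100a9, where 17.5% of all genes were higher. No member had groups without overlap, and the share of all genes without overlap was not counted.

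Ms4a3 ran from 4.06 to 14.6 CPM in wild-type vehicle libraries (median 7.41) and from 5.12 to 28.9 in Jak2V617F vehicle libraries (median 17). It was 2.11-fold higher (log2 1.08 ± 0.34, adjusted p = 0.041), and log2 1.00 ± 0.26 with the block (adjusted p = 0.014). Ctsg ran from 7.98 to 33.3 CPM (median 10.5) and from 7.48 to 81.9 (median 41.1). The Jak2V617F libraries were spread 10.9-fold, with replicate 1 at the bottom and replicate 4 at the top. The log2 difference of Ctsg was 1.44 ± 0.48 (adjusted p = 0.054), and 1.31 ± 0.43 with the block (adjusted p = 0.042). The blocked call of Ctsg was lost in 5 of the 6 fits that left out 1 mouse (adjusted p from 0.027 to 0.13), and held without replicate 1.

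Elane ran from 20 to 89.9 CPM in wild-type vehicle libraries (median 28.5) and from 21 to 223 in Jak2V617F vehicle libraries (median 95.7). The top wild-type library was replicate 2 and the top Jak2V617F libraries were replicates 4 and 5. Its log2 fold change was 1.51 ± 0.51 (adjusted p = 0.055). Mpo ran from 69.2 to 340.0 CPM (median 114) and from 63.1 to 772 (median 327), with the same libraries at the top. Its log2 fold change was 1.31 ± 0.51 (adjusted p = 0.093). Neither gene passed with the block, in which the adjusted p was 0.05 after rounding for Elane and 0.1 for Mpo.

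S100a8 ran from 8.03 to 59.4 CPM (median 25.3) in wild-type and from 26.1 to 189 (median 68.5) in Jak2V617F vehicle libraries. Wild-type replicates 2 and 4 and Jak2V617F replicates 4 and 5 were the high ones. The log2 difference was 1.45 ± 0.59 (adjusted p = 0.11), and 1.40 ± 0.35 with the block (adjusted p = 0.012). S100a9 ran from 12.7 to 94.1 CPM (median 36.8) and from 34.9 to 270 (median 105). Its log2 difference was 1.30 ± 0.61 (adjusted p = 0.16), and 1.28 ± 0.34 with the block (adjusted p = 0.018).

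The remaining members did not pass under vehicle. Prtn3 ran from 72.8 to 167 CPM (median 120) in wild-type and from 69.1 to 304 (median 143) in Jak2V617F libraries, with log2 0.45 ± 0.27. Retnlg ran from 1.27 to 7.03 CPM (median 3.49) and from 0.805 to 13.6 (median 9.37), with log2 1.09 ± 0.61. Ccl6 ran from 1.44 to 7.9 CPM (median 2.13) and from 1.24 to 7.63 (median 3.51), with log2 0.42 ± 0.50. Lyz2 was at almost the same level in both genotypes, from 142 to 243 CPM (median 177) and from 149 to 279 (median 175). The 95% interval of its log2 difference was -0.41 to 0.52, and -0.13 to 0.22 with the block.

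Within the vehicle mice, the Jak2V617F library held more Elane, S100a8 and S100a9 in 6 of 6 mice. Mpo, Ctsg, Ms4a3 and Retnlg were higher in 5 of 6, Prtn3 and Lyz2 in 4 and Ccl6 in 3. By mouse, 10 of 10 members were higher in replicates 4 and 5, 9 in replicate 2, 8 in replicate 6, 7 in replicate 3 and 5 in replicate 1. The count of 1 called member moved with single libraries. It was 4 without wild-type vehicle replicate 2 or Jak2V617F vehicle replicate 1, 2 without Jak2V617F vehicle replicate 6 and 0 without any other library. It was 0 without the 2 discordant libraries. With the block it was 1 to 5 as each mouse was left out, with 2 without replicate 4 and 1 without replicate 5. The blocked call of Ms4a3 was lost without replicate 5, and that of S100a9 without replicate 4 or 5.

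**Figure D3:**
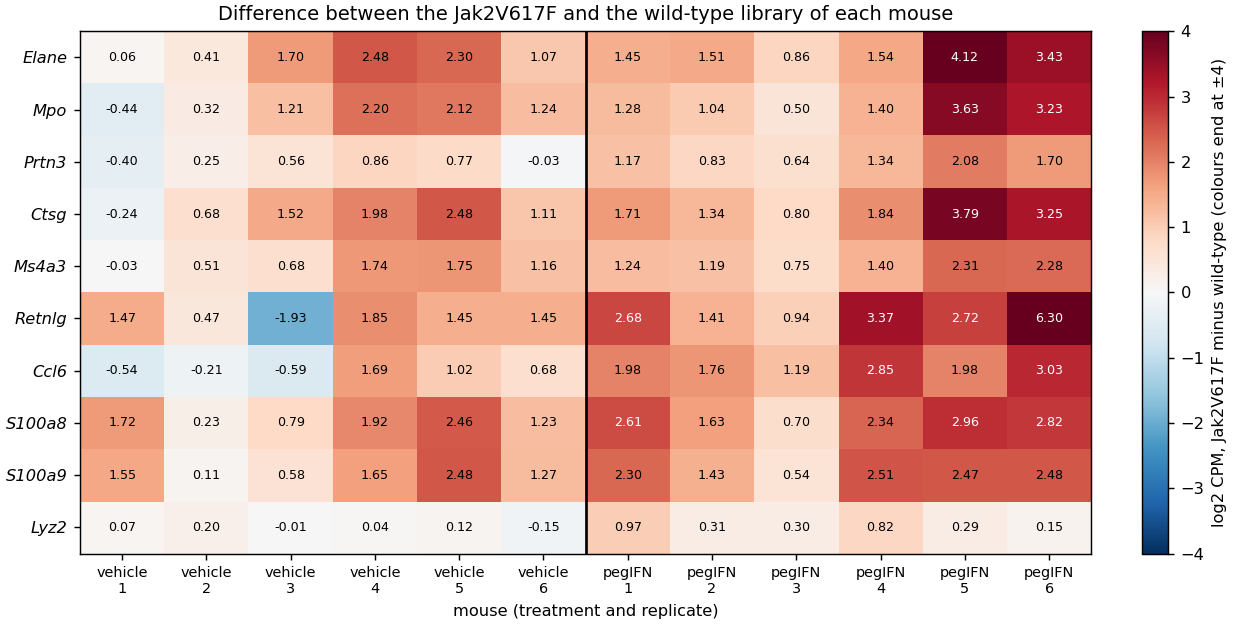
Difference in log2 CPM (prior count 2) between the Jak2V617F and the wild-type library of each mouse, genes in rows and mice in columns, vehicle left and pegIFN right of the black line. Red is higher in Jak2V617F and blue lower, with the value in each cell. All cells of the 6 pegIFN mice are red, and the vehicle mice range from replicate 1 with 5 of 10 genes higher to replicates 4 and 5 with 10 of 10.

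In wild-type LT-HSCs, pegIFN against vehicle gave 0 members higher and 2 lower, Prtn3 and Lyz2, where 28.2% of all genes were higher and 28.7% lower. A share of 2 in 10 is near that background. Their median log2 fold change was -0.56 against -0.01 over all genes, and Ms4a3 was the 1 with a positive value. Prtn3 fell from 72.8 to 167 CPM (median 120) to 35.7 to 61.8 CPM (median 52), without overlap, and the share of all genes without overlap was not counted. The log2 fold change of Prtn3 was -1.27 ± 0.27, a 2.41-fold lower level (adjusted p = 0.00048). Lyz2 fell from 142 to 243 CPM (median 177) to 68.7 to 163 CPM (median 94.5). Under pegIFN replicate 3 overlapped the vehicle group. Its log2 fold change was -0.90 ± 0.24, a 1.87-fold lower level (adjusted p = 0.0031). BC005764, which overlaps Prtn3, had a log2 fold change of -1.46 ± 0.20 (adjusted p = 2.6e-06), and its part in the reads given to Prtn3 was not tested.

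Elane, Ctsg and Mpo did not pass in wild-type cells. Elane had a log2 fold change of -0.26 ± 0.51 (adjusted p = 0.68), Ctsg of -0.17 ± 0.48 and Mpo of -0.14 ± 0.51. All 3 turned positive without wild-type vehicle replicate 2, the library with the highest Elane, Mpo and Ctsg of its group. Ms4a3 was at 0.07 ± 0.34, and turned negative with upper-quartile factors. S100a8 was at -0.85 ± 0.59 (adjusted p = 0.23), S100a9 at -0.76 ± 0.62, Ccl6 at -0.78 ± 0.51 and Retnlg at -0.35 ± 0.62. S100a8 passed without wild-type pegIFN replicate 3, its highest library in that group. The 2 calls held in all other fits, and without the library of replicate 3 the count was 3.

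In Jak2V617F LT-HSCs, pegIFN against vehicle gave 0 members higher and 0 lower, where 21.7% of all genes were higher and 22.3% lower. At an unadjusted p under 0.05, edgeR counted 8107 genes and none of the 10. Among the 10 genes the median log2 value was 0.21 against -0.01 over all genes, with 6 of 10 positive. Retnlg was at 0.97 ± 0.60 (adjusted p = 0.2) and Ccl6 at 0.83 ± 0.49 (adjusted p = 0.18), the most positive. Prtn3 was at -0.44 ± 0.27 (adjusted p = 0.19) and Lyz2 at -0.47 ± 0.24 (adjusted p = 0.12), the most negative. The 95% intervals were wide: -0.78 to 1.16 for Elane and -0.76 to 1.22 for Mpo. Lyz2 passed without Jak2V617F pegIFN replicate 1, a discordant library, with log2 -0.63. Ccl6 passed in limma-voom with mouse as random effect. DESeq2 also called 0 members, and 7214 genes in all.

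The spread between Jak2V617F libraries differed by treatment for the granule genes. The coefficient of variation of Elane was 71% under vehicle and 27.2% under pegIFN, that of Mpo 72.4% and 27.8%, and that of Ctsg 68.3% and 28.9%. In wild-type cells the values for Elane were 69.5% and 52.7%. These are descriptions of 6 libraries each, and the difference in spread was not tested.

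The comparisons of genotype and of treatment share libraries, so their values are not independent of each other. The test of whether the effect of pegIFN differed between the genotypes (the interaction) called 0 of 10 members and 0% of all genes without the block. At an unadjusted p under 0.05 edgeR counted 1338 genes, among them Ccl6 (log2 1.61 ± 0.71) and Prtn3 (0.83 ± 0.38). DESeq2 called 38 genes, with 0 members. All 10 interaction values were positive, with a median of 0.46 against -0.0023 over all genes. With the mouse as a block 1 of 10 was called, Ccl6, at 1.75 ± 0.43 (adjusted p = 0.042), where 1.28% of all genes were higher. Prtn3 was at 0.94 ± 0.29 (adjusted p = 0.11) and Lyz2 at 0.43 ± 0.13 (adjusted p = 0.084) in that fit. In limma-voom with mouse as random effect Ccl6 did not pass (1.73, adjusted p = 0.085), and 0 members were called. With the block Ccl6 lost its call in 9 of the 12 fits that left out 1 mouse, and kept it without vehicle replicate 4 or pegIFN replicate 3 or 6. Elane and Mpo turned slightly negative without wild-type vehicle replicate 2, as did S100a8 and S100a9 without the 2 discordant libraries.

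The genes were then compared from library to library. Across the 24 libraries, with the mean of each group removed, the genes of the primary granule moved together. Pearson's r of log2 CPM was 0.989 between Elane and Mpo, 0.985 between Mpo and Ctsg, 0.955 between Ctsg and Ms4a3 and 0.873 between Elane and Prtn3. S100a8 and S100a9 had r = 0.993. Between these clusters values were lower, such as 0.659 for Elane and S100a9. Retnlg and Ccl6 lay nearer the S100 genes (0.79 for Retnlg with S100a8, 0.846 for Ccl6 with S100a9) than Elane (0.502 and 0.629). Lyz2 had r = 0.779 with S100a9 and 0.396 with Elane. These points share libraries, mice and depth, and r is given as a description.

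**Figure D4:**
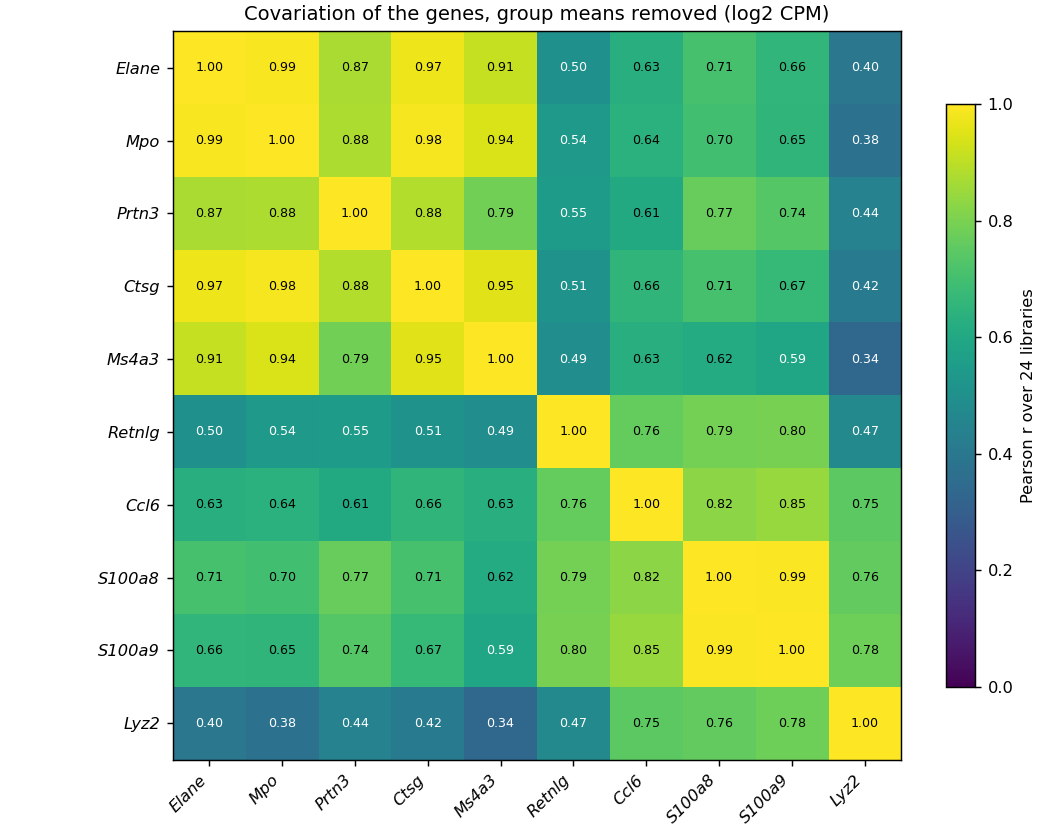
Pearson's r between the 10 genes over 24 libraries, from log2 CPM after removal of group means; both axes list the genes and each cell prints its r. The bright square of Elane, Mpo, Prtn3, Ctsg and Ms4a3 (0.787 to 0.989) and that of S100a8 and S100a9 (0.993) stand out, and Lyz2 is darkest against the first.

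The non-member genes most like the members fell into the same kinds. For Elane, Mpo, Prtn3 and Ctsg the closest gene was Gm11505 (r = 0.987, 0.983, 0.907 and 0.976), which lies antisense within the Mpo locus and may share its reads. Ms4a3 was closest to Atp8b4 (0.919), ahead of Gm11505 (0.904). Next for the proteases and Mpo were the myeloid lectin Clec12a (0.944 for Elane, 0.932 for Mpo, 0.934 for Ctsg), Igsf6 (0.92 for Elane, 0.888 for Prtn3), Sgms2 (0.929 for Mpo), Dok3 (0.89 for Prtn3) and Atp8b4 (0.924 for Ctsg). Retnlg was closest to the gelatinase genes Mmp9 (0.958) and Mmp8 (0.957) and to the C5a receptor C5ar1 (0.931). Ccl6 was closest to Cd300lb (0.891), B430306N03Rik (0.883) and Ifitm6 (0.871). S100a8 and S100a9 were closest to lipocalin Lcn2 (0.952 and 0.966), with Cd300lf, Ifitm6 and the neutrophilic granule protein gene Ngp (0.942 for S100a9) following. Lyz2 was closest to the chitinase-like Chi3l3 (0.915), Gpr141 (0.888) and Myo1f (0.886).

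Other genes linked to granulocytes were counted from fixed lists. Over all genes 4.16% were higher in Jak2V617F cells under pegIFN and 8.48% under vehicle, and 13.3% and 17.5% with the block. These shares apply to the counts between genotypes of every list below. The list named for the primary granule also holds genes whose products are not granule proteins, such as Hk3 and Clec12a. Of its 11 tested genes, which exclude the members, 8 were higher in Jak2V617F cells under pegIFN and 0 lower, and 9 with the block. Among them were the glycolytic enzyme gene Hk3 (log2 1.18 ± 0.25, adjusted p = 0.0057), the protease inhibitor gene Serpinb1a (0.48 ± 0.11, adjusted p = 0.0087), Clec12a (1.79 ± 0.41, adjusted p = 0.01) and the serine protease gene Prss57 (1.36 ± 0.34, adjusted p = 0.018). Under vehicle 1 of 11 was higher, the cystatin gene Cst7 (1.06 ± 0.26, adjusted p = 0.011), and 5 with the block. With pegIFN in wild-type cells 2 were higher, Plac8 (2.52 ± 0.19) and Cst7 (1.95 ± 0.26), and 5 lower, and in Jak2V617F cells 2 were higher and 1 lower. Over all genes 28.2% were higher and 28.7% lower in wild-type cells, and 21.7% and 22.3% in Jak2V617F cells.

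The NADPH oxidase, which feeds hydrogen peroxide to myeloperoxidase, had 2 of 6 subunit genes higher in Jak2V617F cells under pegIFN, Ncf1 (0.93 ± 0.21, adjusted p = 0.011) and Ncf4 (0.56 ± 0.15, adjusted p = 0.024), and 3 with the block. Under vehicle 1 of 6 was higher, Ncf1 (0.70 ± 0.21, adjusted p = 0.035), and 3 with the block. Of 6 receptors and partners of the members, 2 were higher under pegIFN, 4 with the block. They were Ccr1, the chemokine receptor that binds Ccl6 (2.19 ± 0.56, adjusted p = 0.019), and Cd33 (1.94 ± 0.54, adjusted p = 0.028). The calprotectin receptor gene Tlr4 was at 0.38 ± 0.17 (adjusted p = 0.17). With pegIFN 3 of the 6 were lower in wild-type cells, Tlr4 (-1.18 ± 0.17), the granulocyte colony-stimulating factor receptor gene Csf3r (-1.62 ± 0.27) and Ager (-0.70 ± 0.21). In Jak2V617F cells 2 were lower, Tlr4 (-0.48 ± 0.17) and Csf3r (-0.67 ± 0.27). Over all genes 28.7% were lower in wild-type and 22.3% in Jak2V617F cells.

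Of 14 regulators of myeloid genes, 2 were higher and 1 lower in Jak2V617F cells under pegIFN, and 6 and 1 with the block. Gfi1, a repressor that drives granulocyte fate, was at 1.16 ± 0.27 (adjusted p = 0.013), and Cebpd, a C/EBP factor gene, at 1.38 ± 0.29 (adjusted p = 0.005). Myb, a progenitor transcription factor gene, was lower (-0.67 ± 0.09, adjusted p = 9.5e-05). Under vehicle 0 of 14 passed in either direction, and 3 higher and 2 lower with the block. With pegIFN 7 of 14 fell in wild-type cells and 1 rose, and 3 fell in Jak2V617F cells. Over all genes 28.7% fell and 28.2% rose in wild-type cells, and 22.3% fell in Jak2V617F cells. Spi1, which encodes PU.1, fell in wild-type cells (-0.40 ± 0.11, adjusted p = 0.003). Of 12 tested neighbours and paralogs of the members, such as S100a6, S100a10 and Ccl9, 0 passed between the genotypes in either treatment, and under pegIFN 5 were higher and 1 lower with the block. Ccl9 was at 1.09 ± 0.40 (adjusted p = 0.09) and S100a6 at 0.51 ± 0.18 (adjusted p = 0.07).

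Later granulocyte genes were counted from a list of their own. Over all genes 4.16% were higher in Jak2V617F cells under pegIFN and 8.48% under vehicle, and 13.3% and 17.5% with the block. Of 16 genes of specific, gelatinase and mature granulocytes, 5 were higher in Jak2V617F cells under pegIFN and 12 with the block. The 4 with the smallest p were Cxcr2 (1.46 ± 0.36, adjusted p = 0.015), Mcemp1 (1.90 ± 0.48), Anxa1 (0.66 ± 0.18) and Pglyrp1 (1.37 ± 0.40). Under vehicle 1 of 16 was higher, Lrg1 (1.80 ± 0.58, adjusted p = 0.045), and 8 with the block. Their summed level ran from 88 to 332 CPM in wild-type vehicle libraries, 52.2 to 329 in wild-type pegIFN, 103 to 722 in Jak2V617F vehicle and 119 to 447 in Jak2V617F pegIFN, and none was at 0 in a whole group. Within the mice the sum was higher in Jak2V617F cells in 6 of 6 given pegIFN, by 1.16 to 3.24-fold, and in 5 of 6 given vehicle. The highest sum under pegIFN, 447 CPM, was that of Jak2V617F replicate 1, a discordant library. Ly6g, the antigen of Gr-1 that the depletion targets, was at medians of 0.117, 0.0638, 0.329 and 0.282 CPM in these 4 groups in the same order. The part of these transcripts in the results for the members was not tested.

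The same shares of all genes, 4.16% under pegIFN and 8.48% under vehicle, and 13.3% and 17.5% with the block, stand beside the next counts. Of 9 macrophage markers, 3 were higher in Jak2V617F cells under pegIFN, Cd68 (0.70 ± 0.20), Cd5l (2.32 ± 0.70) and Vcam1 (1.88 ± 0.58), and 7 with the block. Under vehicle 0 of the 9 markers were higher, and 5 with the block. Their sum ran from 19.7 to 76 CPM in wild-type vehicle, 25.5 to 49.8 in wild-type pegIFN, 25.6 to 113 in Jak2V617F vehicle and 38.8 to 135 in Jak2V617F pegIFN libraries. It was higher in Jak2V617F cells in 6 of 6 mice given pegIFN, and no marker was at 0 in a whole group. The highest macrophage sum, 135 CPM, was that of Jak2V617F pegIFN replicate 1, a discordant library. Of 14 monocyte genes, 1 was higher under pegIFN, Cd14 (1.50 ± 0.46, adjusted p = 0.043), and 6 with the block. Under vehicle 0 of the 14 passed, and with the block 2 were higher and 1 lower. The monocyte sum ran from 79.5 to 199, 89.7 to 190, 70.5 to 299 and 163 to 276 CPM in the same order of groups. The part of macrophage and monocyte transcripts was not tested.

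Markers of other lineages were counted in the same way. In Jak2V617F against wild-type cells under pegIFN, 0 of 5 tested B cell, 0 of 4 tested T and NK cell and 0 of 5 tested endothelial and stromal genes passed in either direction. Over all genes 4.16% were higher and 4.43% lower, so counts of 0 among so few genes are near that background. With the block 1 B cell and 1 T and NK cell gene were higher, where 13.3% of all genes were higher. Within the mice given pegIFN, the summed T and NK level was higher in Jak2V617F cells in 6 of 6, by 1.1 to 1.9-fold. That of B cell genes was higher in 4 of 6 and that of endothelial and stromal genes in 0 of 6. Among 8 tested genes of mast cells, basophils and eosinophils 1 was lower (Gata2, -0.41 ± 0.09), and among 9 late erythroid genes 1 was lower (Car1, -1.18 ± 0.37). Of 7 antigens used in the gate or depletion 1 was lower, Kit (-0.60 ± 0.13, adjusted p = 0.0094). With the block 2 of the 7 were higher and 1 lower. The 2 were depletion targets, Itgam, which encodes CD11b (1.23 ± 0.16, adjusted p = 0.00015, and 1.12 ± 0.38, adjusted p = 0.068, without the block), and Ly6g (1.92 ± 0.51, adjusted p = 0.011). Itgam had medians of 4.83 CPM in wild-type pegIFN and 12 in Jak2V617F pegIFN libraries, and its part in the results for the members was not tested. Cd48, whose product the gate excludes, had medians of 7.3 CPM in wild-type vehicle, 25.9 in wild-type pegIFN, 12.7 in Jak2V617F vehicle and 33.4 in Jak2V617F pegIFN libraries. It was not called between the genotypes under pegIFN (0.33 ± 0.18, adjusted p = 0.27), and was higher in Jak2V617F cells under vehicle (0.67 ± 0.19, adjusted p = 0.023). Cd48 rose with pegIFN in wild-type cells (1.76 ± 0.19, adjusted p = 6.8e-08) and in Jak2V617F cells (1.415 ± 0.185, adjusted p = 3.1e-06).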

How the data were processed

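The deposited values are RSEM expected counts per gene for 24 libraries of sorted LT-HSCs, 6 in each of 4 groups. Reads were single-end 75 bp from oligo-dT selected RNA, per the labels' protocols. Cutadapt 1.11, STAR 2.5.2a, RSEM 1.2.30 and GRCm38 are named in the submitters' processing notes. The annotation release and strand setting are not given in the sources used here.

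Expected counts (16.75% were not whole) were rounded. Genes passing filterByExpr (minimum count 10) were kept, 15879 of 38215 with 99.95% of counts. The fit was edgeR 4.0.16 (R 4.3.3) with TMM factors, 1 mean per group and robust quasi-likelihood tests, with Benjamini-Hochberg adjustment over all genes tested and a threshold of 0.05. The biological coefficient of variation was 18.58%. Total counts of 24.6 to 39.7 M per library set the counting precision. SE is the standard error of a log2 fold change. The 95% intervals of log2 fold changes are taken from it with the normal quantile and include variation between libraries. They are narrower than the edgeR test implies. For Lyz2 between genotypes under pegIFN the interval was 0.02 to 0.96 where the unadjusted edgeR p was 0.0537. The interval of the Retnlg ratio covers counting error only. The fit without a block was tested on simulated libraries without a mouse effect, for the genotypes under pegIFN. The fit with the block and the interaction were not tested in this way.

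The number in a library's name gave its mouse. With group means removed, the 2 libraries of a mouse had correlations of 0.119 to 0.416 (median 0.284, 12 pairs), and in 11 of 12 pairs a library was best matched by its own partner. The numbers were therefore taken to pair the libraries, and fits with the mouse as a block stand beside those without it. Alternatives were DESeq2 1.42.0, limma 3.58.1 (voom, mouse as a random block), other size factors and filters, only the groups compared, and leaving out libraries. Block fits leaving out each mouse were added after seeing the data.

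All 10 members are named in every comparison. Of the other lists used here, counts are given and up to 4 genes with the smallest p are named, and the 3 non-members most correlated with each member are named. Other genes named (Gm11505, BC005764, Lyz1, E230016K23Rik, Xist, Procr, Hlf, Mecom, Fgd5) were chosen after their values were seen. The members and lists were chosen with earlier results of these data known. Promoters came from RefSeq GRCm38.p6, matched by symbol for 10 of 10 members. Results of 2 further lists, and 1 gene, are not reported here.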

Additional observations from a re-analysis of the deposited data

Results flagged for a closer look

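In wild-type vehicle cells, replicate 2 stood apart from the other 5 libraries for 3 of the 10 genes. Its Elane level was 89.9 CPM where the others were at 20 to 40.1. Its Mpo level was 340.0 CPM where the others were at 69.2 to 167, and its Ccl6 level was 7.9 CPM where the others were at 1.44 to 2.49. The gap to the nearest library, as a share of the group's range, was 0.713 for Elane, 0.637 for Mpo and 0.837 for Ccl6, above Dixon's 95% critical value of 0.625 for 6 samples. Of 40 gene and group combinations tested, these were the 3 above it, and chance alone passes about 1 in 20.

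The effect of pegIFN on Ccl6 differed between the genotypes with the mouse as a block, by 1.75 on the log2 scale (edgeR adjusted p = 0.042). The call was lost in 9 of the 12 fits that left out 1 mouse. It was not made in limma-voom with mouse as random effect (adjusted p = 0.085).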

How the results depend on the processing

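With the mouse as a replicate block, 4 members were higher in Jak2V617F cells under vehicle (1 without), 10 under pegIFN (7 without) and 1 in the interaction (0 without). Over all genes, calls with the block were 4944 under vehicle (2018 without), 3910 under pegIFN (1364 without) and 528 in the interaction (0 without). In limma-voom with mouse as random effect, 5 members were higher in Jak2V617F cells under vehicle, 10 under pegIFN and 0 in the interaction. All-gene calls were 5257, 3859 and 281 in the same order. The interaction of Ccl6 had an adjusted p of 0.085 in limma-voom. For pegIFN against vehicle in Jak2V617F cells limma-voom called 1 member higher, and 6840 genes in all. DESeq2 called 4 members and 2661 genes under vehicle, and 9 members and 1921 genes under pegIFN. In the interaction it called 0 members and 38 genes. Without a filter, or with only the groups compared, 0 members were called under vehicle, with 1591 and 1152 genes called in all.

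Without the 2 discordant libraries, members called were 0 under vehicle, 3 under pegIFN and 1 lower with pegIFN in Jak2V617F cells. All-gene calls were then 999 under vehicle and 653 under pegIFN, and the interaction was -0.062 for S100a8 and -0.20 for S100a9. With upper-quartile factors Ms4a3 was at -0.014 with pegIFN in wild-type cells.

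Leaving out 1 library at a time gave 0 to 4 members and 929 to 2650 genes under vehicle, and 3 to 8 members and 593 to 2051 genes under pegIFN. It gave 0 to 36 genes in the interaction and 0 to 1 members lower with pegIFN in Jak2V617F cells. Log2 values that changed sign ranged, with pegIFN in wild-type cells, from -0.44 to 0.22 for Elane, -0.28 to 0.31 for Mpo, -0.30 to 0.23 for Ctsg and -0.057 to 0.36 for Ms4a3. With pegIFN in Jak2V617F cells they ranged from -0.026 to 0.53 for Elane, -0.71 to 0.053 for S100a8 and -0.72 to 0.072 for S100a9. For Lyz2 between genotypes under vehicle the range was -0.070 to 0.15, and in the interaction it was -0.032 to 0.79 for Elane and -0.089 to 0.73 for Mpo. The cause of these changes was not tested. Block fits without 1 mouse gave 1 to 5 members under vehicle, 9 to 10 under pegIFN and 0 to 2 in the interaction.

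Depth limits Retnlg most, with as few as 3 counts in a library.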
